A study of Mus musculus with 10 samples.

Results

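The baseline described here is the transcriptome of the 2 libraries titled saline, the saline-treated reference cultures of a study of 10 mouse RNA-sequencing libraries. Genes were kept for description when they reached at least 1 TPM (a length-corrected relative abundance of transcripts within a library) in both saline libraries, which 12500 of the 28987 listed genes did. The cultures came from inguinal white fat of male C57BL/6 mice aged 6 to 8 weeks. The labels describe a collagenase and dispase digest that was filtered, grown to confluence in growth medium and given saline for 24 h, and they call the resulting cells primary white adipocytes. They mention no differentiation step, and they do not say whether the 2 libraries came from separate animals or separate cultures. The 8 other libraries, used below only where the replicate number is examined, are pairs from the same source, sex, strain, age and duration treated with recombinant BAFF or APRIL at 500 ng/ml, LPS at 100 ng/ml or norepinephrine at 1 mM. Values are given for replicate 1 and then replicate 2, and with 2 libraries that pair of values is the whole measure of error. Because the files hold TPM and no counts, the read depth behind each value is unknown.

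White adipocytes take up fatty acids from lipoproteins, bind and esterify them, and store them as triglyceride in a droplet whose coat proteins and lipases control release. They also secrete hormones such as adiponectin and resistin. A digest of a fat pad holds, beside adipocytes, fibroblast-like progenitors that lay down collagen and can become adipocytes, vascular cells, and resident macrophages. In bulk RNA a low level of a marker can come from fewer cells of a type or from less RNA per cell, and these cannot be told apart.

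The 2 libraries listed 12899 and 12879 genes at 1 TPM or more, and 778 genes reached it in only 1 of them. The 12500 shared genes, 43.1% of those listed, held 99.7% and 99.8% of the listed TPM. Of these, 11515 were annotated as protein-coding and 507 as pseudogenes, and 177 had no symbol in the annotation used. Their median level was 13.8 TPM in each library. Abundance was concentrated in few genes: 135 and 131 genes made up 50% of the listed TPM, the 10 highest 25.6% and 26.8%, and the 1000 highest 74.9% in each. The 100 genes highest on the mean of both libraries held 46.4% and 46.9%, and 98 genes were among the 100 highest of each library separately.

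Of the 25 genes with the highest mean, 10 were mitochondrially encoded, 8 were annotated pseudogenes and 7 were other nuclear genes. The mitochondrial gene mt-Atp8, which encodes a small subunit of ATP synthase, led at 119706 and 131540.0 TPM, or 12.4% and 13.6% of the listed total. Its annotated positions on the mitochondrial genome (mm10, chrM:7766-7969) overlap by 43 bases with those of mt-Atp6 (chrM:7927-8607), which encodes another subunit of the same enzyme and stood at 13484 and 16334 TPM. The listed level of mt-Atp8 was thus 8.88 and 8.05 times that of its overlapping neighbour. Whether these levels come from separate RNA molecules was not tested. The cytochrome oxidase genes followed, with mt-Co1 at 16602 and 17324, mt-Co2 at 10192 and 11773 and mt-Co3 at 8645 and 9567 TPM. Among the complex I genes mt-Nd4 stood at 4843 and 5577 TPM and mt-Nd1 at 3576 and 4101 TPM. All 13 protein-coding genes of the mitochondrial genome were expressed, and without mt-Atp8 they held 7.73% and 8.78% of the total.

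The annotated length of mt-Atp8 is 204 nt, and genes with annotated transcripts near that length stood apart from shorter and longer ones. The 32 expressed genes whose longest annotated transcript is at least 200 and under 220 nt made up 0.260% of the expressed genes but held 18.3% and 19.1% of the listed TPM, and 28 of them are pseudogenes. Their median was 403 TPM, against 5.61 TPM for the 6 genes under 200 nt, 17.5 TPM for the 24 genes from 220 to under 250 nt and 11.3 TPM for the 4430 genes of 4000 nt or more. Leaving mt-Atp8 aside, the other 31 of these genes held 5.92% and 5.45%. The part of transcript length in these levels was not tested.

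The pseudogenes near the top of the ranking were near-identical copies of coding genes. Gm9385, on chr9:116040593-116041064, was the gene with the second-highest mean, at 39782 and 35611 TPM, and its 472 nt matched the transcript of a ribosomal protein gene at 99.8% identity. That coding gene is not among the listed genes, so no level of it stands beside this copy. Gm10443, at 13869 and 11869 TPM, matched the whole coding sequence of Rps28, a protein of the small ribosomal subunit, without a difference over 210 bases, whereas Rps28 itself was listed at 489.7 and 471 TPM. Gm20430, at 11009 and 11444 TPM, differed at 1 of 206 aligned bases from the last part of the Rpl12 coding sequence, and Rpl12 was listed at 48.8 and 56.0 TPM. Gm15526, at 4351 and 2917 TPM, differed at 3 of 204 bases from the first part of the Rpl29 coding sequence, and Rpl29 stood at 539.9 and 562 TPM. The sequences below are shown because few or no bases separate each copy from its coding gene. They are read 5′ to 3′ from the GENCODE M21 transcripts (mm10), and capitals mark the bases that differ within a pair. Gm10443 lies on chr6:86334031-86334240 on the plus strand, Gm20430 on chr14:57698013-57698219 on the plus strand and Gm15526 on chr6:54177480-54177683 on the minus strand.
Gm10443 and Rps28: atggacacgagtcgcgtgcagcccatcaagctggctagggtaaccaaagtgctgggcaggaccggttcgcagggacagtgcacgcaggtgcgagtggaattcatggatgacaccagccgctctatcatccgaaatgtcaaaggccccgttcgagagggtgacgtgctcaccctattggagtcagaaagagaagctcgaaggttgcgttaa
Gm20430: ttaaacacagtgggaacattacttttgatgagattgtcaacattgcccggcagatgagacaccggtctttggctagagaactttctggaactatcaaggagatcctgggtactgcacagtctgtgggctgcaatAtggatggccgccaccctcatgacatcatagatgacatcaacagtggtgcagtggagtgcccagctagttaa
Rpl12: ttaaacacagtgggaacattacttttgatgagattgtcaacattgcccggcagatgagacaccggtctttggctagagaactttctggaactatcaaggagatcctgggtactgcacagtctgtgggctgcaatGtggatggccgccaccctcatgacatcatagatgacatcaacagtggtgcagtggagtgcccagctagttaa
Gm15526: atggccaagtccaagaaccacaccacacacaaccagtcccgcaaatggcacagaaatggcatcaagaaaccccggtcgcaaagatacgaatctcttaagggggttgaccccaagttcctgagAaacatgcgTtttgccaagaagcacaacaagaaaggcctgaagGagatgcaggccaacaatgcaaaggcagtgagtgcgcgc
Rpl29: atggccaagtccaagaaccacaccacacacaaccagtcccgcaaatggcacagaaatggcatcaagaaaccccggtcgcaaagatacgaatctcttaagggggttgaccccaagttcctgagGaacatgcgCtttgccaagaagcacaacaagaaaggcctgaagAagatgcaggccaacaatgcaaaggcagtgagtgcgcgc
A read from the shared bases could come from either gene of a pair, so the levels of a copy and its coding gene are uncertain one by one. How the authors' quantification divided such reads was not tested.

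The same pattern ran through the class. Of the 507 expressed pseudogenes, 454 matched the transcript of a named coding gene at 90% identity or more over 50% or more of their length, and these held 99.7% of the TPM of expressed pseudogenes in each library. Copies of cytosolic ribosomal protein genes numbered 155 and held 75.7% and 74.3% of it. The 454 copies matched 287 coding genes. For 109 of the 283 coding genes in the files the copies together stood above the coding gene in both libraries. Ppia, which encodes cyclophilin A and is widely used as a reference gene, was listed at 52.4 and 72.6 TPM and its 3 copies together at 1376 and 1380 TPM. Hmgb1, a chromatin protein, stood at 195 and 209.7 TPM and its 5 copies at 3448 and 3630 TPM. Gapdh was lower than the 8 highest genes of its class, glycolysis, at 117 and 66.8 TPM with 16 copies that summed to 48.7 and 54.8 TPM.

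**Figure D1:**
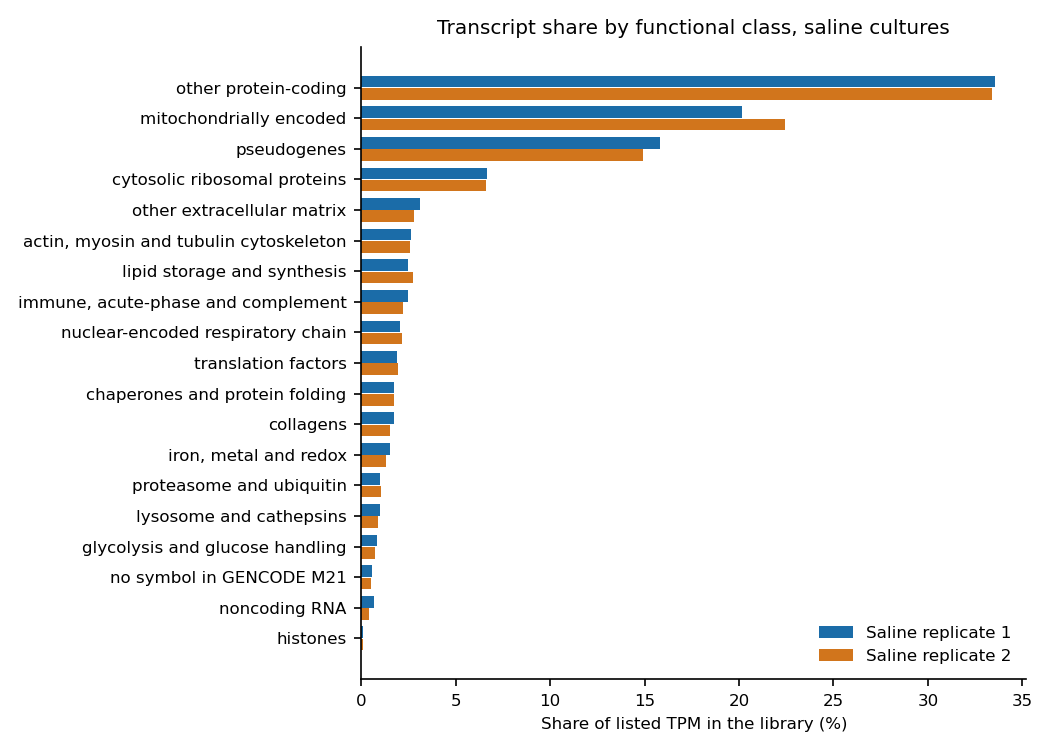
Bars give the percentage of listed TPM that each functional class took in saline replicate 1 and saline replicate 2, every gene being counted in 1 class. Mitochondrially encoded genes (20.2% and 22.4%) and pseudogenes (15.8% and 14.9%) are the largest named classes in both libraries.

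By functional class, mitochondrially encoded genes held 20.2% and 22.4% of the listed TPM, pseudogenes 15.8% and 14.9%, and the 84 listed genes of cytosolic ribosomal proteins 6.68% and 6.61%. Genes placed in none of the named classes held 33.5% and 33.4%. Each copy was then counted with the coding gene it matches, an assignment made after the values were seen. Other models with Gm-numbered or -ps names and such a match were moved too, and expressed non-coding RNA genes fell from 295 to 258. Counted so, ribosomal proteins held 18.9% and 18.0%, pseudogenes 0.111% and 0.0958%, and the mitochondrial class 20.5% and 22.8%. Cytoskeletal genes held 2.63% and 2.58%, led by the intermediate filament vimentin (Vim) at 2797 and 2499 TPM. Lipid storage and synthesis held 2.47% and 2.73%, the nuclear-encoded respiratory chain 2.06% and 2.15%, and collagens 1.75% and 1.54%. The other extracellular matrix genes held 3.13% and 2.82%, with Sparc, which binds collagen, at 3967 and 3596 TPM and the proteoglycan biglycan (Bgn) at 3111 and 2937 TPM. Immune, acute-phase and complement genes held 2.46% and 2.20%, of which the haemoglobin-binding haptoglobin (Hp) alone contributed 5599 and 4860.1 TPM. Translation factors took 1.91% and 1.93%, led by the elongation factor Eef1a1 at 6578 and 6375 TPM, and chaperones 1.71% in each. Iron, metal and redox genes took 1.51% and 1.31%, with the ferritin chains Fth1 at 2506 and 2082 TPM and Ftl1 at 2572 and 1914 TPM. The proteasome and ubiquitin class took 1.01% and 1.03%, the lysosome 0.980% and 0.878%, and glycolysis 0.837% and 0.739%, led by enolase (Eno1) at 2167 and 2045 TPM.

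Non-coding RNA had the largest relative difference between the libraries, at 0.672% and 0.410%. Gm13568, named here after its values were seen, was listed at 2969 and 145 TPM, and 414 of its 446 bases matched a Notch1 transcript without a difference, while Notch1 was at 12.3 and 13.1 TPM. Gm13568 lies on chr2:26457144-26458316 and is not annotated as a pseudogene. Whether it overlaps the Notch1 gene itself, rather than being a copy elsewhere, was not tested. The next non-coding gene, Gas5, a host of small nucleolar RNAs, stood at 537 and 582 TPM. The difference in Gm13568 exceeded that of the whole class.

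Across the 12500 genes the 2 libraries lay close together. The median absolute difference was 0.13 on the log2 scale, 90% of genes lay within 0.47, and 9477 genes (75.8%) were within 1.2-fold. Pearson's correlation of log2 TPM across these genes was 0.986, a description only, since genes are not independent replicates. The median difference was 0.13 in the BAFF pair, 0.16 with norepinephrine, 0.21 with LPS and 0.28 in the pair labelled APRIL, each over the genes at 1 TPM or more in that pair. In the saline pair it fell from 0.22 for the 2877 genes with a mean of 1 to 5 TPM to 0.10 for the 253 genes at 500 TPM or more. A 2-fold excess in replicate 1 was found in 202 genes (1.62%) and in replicate 2 in 88 genes (0.704%). The functional classes with the widest spread were pseudogenes and non-coding RNA, with medians of 0.25 each, and that with the narrowest was the cytosolic ribosomal proteins at 0.06.

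**Figure D2:**
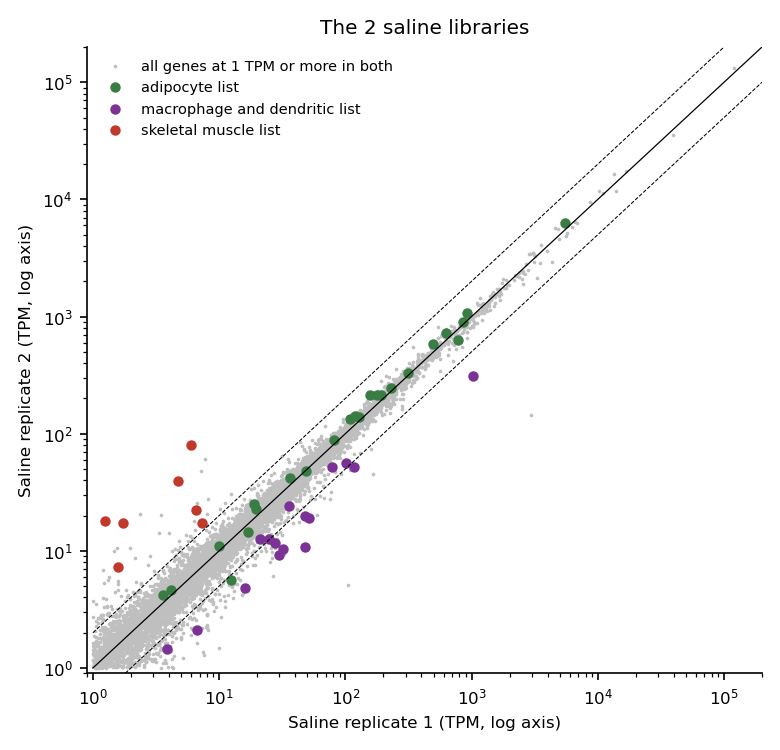
Each grey point is 1 of the 12500 genes at 1 TPM or more in both saline libraries, on log axes in TPM, with replicate 1 on the horizontal and replicate 2 on the vertical axis. The solid line marks equal values and the dashed lines 2-fold; the 7 skeletal muscle genes lie above the upper dashed line, 11 of 16 macrophage and dendritic genes below the lower one, and the adipocyte genes along the diagonal apart from 1, Plin1.

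Genes of the adipocyte were abundant, and 24 of the 26 on the list reached 1 TPM in both libraries, 14 of them with a mean of at least 100 TPM. The most abundant was Fabp4, the fatty acid binding protein of adipocytes, at 5452 and 6287 TPM. Adipoq, which encodes adiponectin, stood at 925 and 1062 TPM, and Car3, a carbonic anhydrase abundant in fat, at 860.0 and 905 TPM. Lipoprotein lipase (Lpl) stood at 775 and 627 TPM, and Cd36, a fatty acid transporter, at 231 and 245 TPM. The triglyceride lipase Pnpla2 was at 632 and 721 TPM and hormone-sensitive lipase (Lipe) at 193 and 213 TPM. Of these 7 genes Lpl alone was higher in replicate 1. The regulator of adipocyte formation Pparg stood at 80.7 and 88.5 TPM and Cebpa, its partner, at 128 and 139 TPM.

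Some genes of the adipocyte list were low beside these. The hormone leptin (Lep) was at 0.457 and 0.806 TPM, and the droplet protein Cidea, also on the brown and beige list, at 0.587 and 0.665 TPM. Plin1, the main droplet coat protein of mature adipocytes, was at 12.4 and 5.62 TPM and was the list's only member to differ by 2-fold, whereas Plin2, found on droplets of many cell types, stood at 407 and 368 TPM and Plin4 at 177 and 212 TPM. Of all expressed genes 2.32% were at least 2-fold apart. The insulin-regulated glucose transporter Slc2a4 was at 16.9 and 14.6 TPM and the phosphoenolpyruvate carboxykinase gene Pck1 at 3.62 and 4.20 TPM. Summed over the list the adipocyte genes held 10816 and 12084 TPM, and 22 of the 26 were higher in replicate 2, beside 52.9% of all expressed genes. Set against the label of primary white adipocytes, 14 of the 26 list genes thus had a mean of at least 100 TPM. Leptin was below 1 TPM, and Plin1 and Pck1 were below the median of all expressed genes, 13.8 TPM. Cidea was also below 1 TPM but is shared with the brown and beige list. The lists of other cell types below give the levels of their marker transcripts, and which cells made them was not tested.

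Thermogenic genes of brown and beige fat were low, and 2 of 15 stood above 10 TPM. Ucp1, the uncoupling protein that produces heat, was at 0.0461 and 0.123 TPM, Dio2, which activates thyroid hormone, at 0.142 and 0.121 TPM and Ppargc1a, a coactivator of mitochondrial genes, at 0.873 and 1.32 TPM. The respiratory-chain subunits Cox7a1 and Cox8b stood at 153 and 146 TPM and 22.9 and 25.1 TPM. Of the list 6 genes reached 1 TPM in both libraries.

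The machinery of lipid synthesis was well represented. Scd1, the desaturase that makes monounsaturated fatty acids, was the most abundant named nuclear gene outside translation, at 5647 and 6701 TPM, and 25 of 27 genes for fatty acid and triglyceride synthesis reached 1 TPM. Fatty acid synthase (Fasn) stood at 338 and 347 TPM, the acyltransferase Agpat2 at 171 and 219 TPM and acetyl-CoA carboxylase (Acaca) at 172 and 174 TPM. Dbi, which binds acyl-CoA, was at 1156 and 1256 TPM, and G0s2, an inhibitor of Pnpla2, at 316 and 282 TPM. Of 23 adipogenic transcription factor genes 19 reached 1 TPM, led by the lipogenic regulator Srebf1 at 361 and 364 TPM, with Cebpb at 92.1 and 78.5 TPM and Ebf1 at 65.7 and 66.2 TPM.

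Genes of adipose progenitors and fibroblasts summed to a level near that of adipocyte genes, 13917 and 12581 TPM over 24 genes. Much of that sum was fibrillar collagen, with Col1a1 at 5697 and 5122 TPM and Col3a1 at 3466 and 2887 TPM. The membrane receptor Pdgfra, which marks these cells, stood at 70.3 and 66.1 TPM, Ly6a (Sca-1) at 533 and 558 TPM and Thy1 at 375 and 343 TPM. The elastic-fibre protein Mfap5 was at 661 and 533 TPM and the actin-severing protein gelsolin (Gsn) at 1218 and 1288 TPM. Of the list, 21 genes reached 1 TPM in both libraries. The 3 that did not were Dpp4, at 0.907 and 0.131 TPM, and Pi16, at 0.474 and 0.659 TPM, which mark an early progenitor population, and Dact2, at 0.128 and 0.0410 TPM. Dlk1, an inhibitor of adipocyte formation, was the only one of those 21 that was at least 2-fold apart, at 1.201 and 6.84 TPM. Of all expressed genes 2.32% were that far apart.

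Contractile and mural markers were also present. Smooth muscle actin (Acta2) stood at 839 and 932 TPM and transgelin (Tagln) at 595 and 574 TPM, whereas the smooth muscle myosin Myh11 was at 6.02 and 8.68 TPM and the pericyte marker Rgs5 at 1.43 and 1.96 TPM. Pdgfrb, a receptor of mural cells and fibroblasts, stood at 83.8 and 88.1 TPM. Endothelial markers were low, summing to 52.0 and 60.4 TPM over 15 genes. Egfl7 was the highest of them at 21.3 and 21.6 TPM, with Pecam1 at 4.57 and 6.86 TPM and Cdh5, the cadherin of endothelial junctions, at 4.22 and 5.42 TPM.

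Of the 35 cell-cycle genes, 33 reached 1 TPM in both libraries. Mki67, a marker of proliferating cells, stood at 18.4 and 18.9 TPM, the mitotic kinase Cdk1 at 70.0 and 82.5 TPM and DNA topoisomerase Top2a at 42.7 and 51.8 TPM. The cyclin-dependent kinase inhibitor Cdkn1a was at 102 and 87.0 TPM and Cdk4 at 253 and 275 TPM. None of the 33 differed 2-fold between the libraries, beside 2.32% of all expressed genes.

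**Figure D3:**
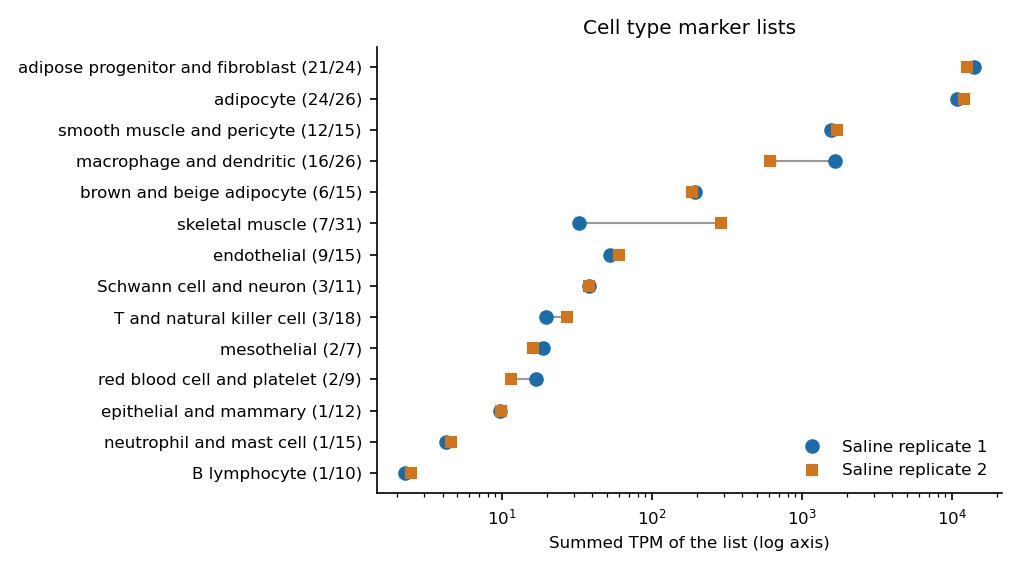
Points give the summed TPM of each cell type marker list in saline replicate 1 (circles) and replicate 2 (squares) on a log axis, and the numbers in brackets are members at 1 TPM or more in both over members in the files. The pairs coincide closely for most lists and lie far apart for skeletal muscle (32.4 and 288 TPM) and for macrophages and dendritic cells (1665 and 614 TPM).

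Macrophage genes set the libraries apart. The list's 26 genes summed to 1665 and 614 TPM, and 23 of the 26 were higher in replicate 1, beside 47.1% of all expressed genes. Of the 16 at 1 TPM or more in both, 11 were at least 2-fold higher in replicate 1, beside 1.62% of all expressed genes, and none in replicate 2. Lysozyme (Lyz2) stood at 1018 and 312 TPM and made up most of that sum. The signalling adaptor Tyrobp was at 116 and 52.3 TPM, the endosomal protein Cd68 at 101 and 56.5 TPM and the surface protein Adgre1 (F4/80) at 29.8 and 9.23 TPM. The 3 genes of complement C1q stood at 47.8 and 10.9 TPM for C1qa, 51.8 and 19.0 TPM for C1qb and 32.3 and 10.4 TPM for C1qc. Csf1r, the receptor that macrophages need to survive, was at 21.2 and 12.6 TPM. The median difference over the 16 genes was -1.34 on the log2 scale, beside 0.01 over all 12500. Ptprc, the pan-leukocyte gene of CD45, was listed at 0 in replicate 1 and at 0.129 TPM in replicate 2, against the direction of the list, and the class II gene H2-Aa was at 0.0357 and 0.0766 TPM while H2-Ab1 stood at 35.6 and 24.1 TPM.

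Skeletal muscle genes differed the other way. All 31 on the list were higher in replicate 2, beside 52.9% of all expressed genes. Their sums were 32.4 and 288 TPM, or 8.89-fold. The 7 that reached 1 TPM in both libraries were each at least 2-fold higher in replicate 2, beside 0.704% of all expressed genes, with a median of 3.05 on the log2 scale, and 15 reached it in 1 library only. The fast myosin light chains Mylpf and Myl1 stood at 5.94 and 79.4 TPM and 4.74 and 39.2 TPM. Myl4, the embryonic and atrial light chain, was at 1.24 and 18.1 TPM and troponin T3 (Tnnt3) at 1.73 and 17.5 TPM. Skeletal actin (Acta1) stood at 6.57 and 22.2 TPM and desmin (Des), which smooth muscle also makes, at 7.26 and 17.2 TPM.

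The muscle genes included developmental forms and regulators of muscle formation. The embryonic myosin heavy chain Myh3 was at 0.0304 and 3.67 TPM and the perinatal form Myh8 at 0.100 and 2.08 TPM. Mymk, which fuses myoblasts, was at 0.132 and 2.26 TPM, and myogenin (Myog), a late myogenic factor, was listed at 0 and at 2.59 TPM. Myod1 was listed at 0 and at 0.366 TPM, and Pax7, the factor of muscle stem cells, at 0 and at 0.00630 TPM. Adult fast-fibre genes were likewise higher in replicate 2, with the calcium pump Atp2a1 at 0.0900 and 11.4 TPM, myoglobin (Mb) at 0.304 and 12.9 TPM and Myh1 at 0.0875 and 6.84 TPM. Muscle creatine kinase (Ckm) was listed at 0 and at 0.293 TPM.

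Extremes were taken among genes at 1 TPM or more in both libraries with a mean of at least 5 TPM. Pseudogenes and unnamed gene models were left out. Muscle genes below 1 TPM in replicate 1, such as Atp2a1 and Mb, were therefore not ranked. The 10 with the largest excess in replicate 1 included C1qa and the integrin Itgam from the macrophage list. They also held Folr2, a folate receptor of resident macrophages, at 26.9 and 6.11 TPM, the phagocyte oxidase gene Cybb at 15.3 and 4.39 TPM, the inhibitory Fc receptor Fcgr2b at 7.98 and 2.32 TPM, the blood-cell phosphatase Inpp5d at 10.3 and 2.74 TPM and the blood-cell adaptor Dok2 at 15.3 and 4.21 TPM. The serum amyloid gene Saa3 was at 165 and 45.6 TPM, the protease inhibitor Serpina3m at 11.2 and 3.34 TPM and the ion-pump regulator Fxyd2 at 8.08 and 2.22 TPM. The 10 with the largest excess in replicate 2 included the muscle genes Myl4, Mylpf, Tnnt3, Myl1 and Acta1. The other 5 were Sinhcaf, a chromatin corepressor subunit, at 7.74 and 61.3 TPM, the matrix protein Thbs4 at 3.49 and 20.4 TPM, Hist1h4k, an H4 histone with near-identical copies, at 1.46 and 9.98 TPM, Prr14l at 6.65 and 25.6 TPM and Aif1l, a relative of the actin-bundling protein Aif1, at 2.82 and 9.13 TPM. These values are a description of the extremes of 1 pair, chosen by the size of the difference.

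The same replicate numbers were set apart in other groups. The muscle list stood at 47.6 and 223 TPM with BAFF, 26.7 and 242 TPM with LPS and 43.3 and 383 TPM with norepinephrine, with 29, 29 and 30 of the 31 genes higher in replicate 2. The macrophage list stood at 1446 and 709 TPM with BAFF, 2039 and 570.4 TPM with LPS and 1707 and 448 TPM with norepinephrine, with 22, 24 and 26 of the 26 genes higher in replicate 1. In the pair labelled APRIL the muscle list was higher in replicate 1, at 250.2 and 55.6 TPM, with 27 of the 31 genes higher there. The macrophage list stood at 695 and 529 TPM, with 12 of the 26 genes higher in replicate 1 and 13 in replicate 2. Over all genes at 1 TPM or more in both libraries of a pair, the median log2 difference was -0.06 with BAFF and 0.09 with LPS. It was 0.04 with norepinephrine and -0.09 in the pair labelled APRIL. Over the 11309 genes at 1 TPM or more in all 10 libraries, the log2 difference between the saline replicates correlated with that in the BAFF pair at r = 0.39, in the LPS pair at 0.42, in the norepinephrine pair at 0.40 and in the pair labelled APRIL at -0.06. These values are across genes, which are not independent replicates, and the pairs compared have no library in common. As a check of the labelled sex, the sum of 4 Y-linked genes (Eif2s3y, Ddx3y, Uty and Kdm5d) was 101 TPM in either saline library and 93.8 to 123 TPM in 6 others. It was 0.489 and 0.775 TPM in the pair labelled APRIL, also given as male. The labels do not say what a replicate number stands for, and its part in the muscle and macrophage differences was not tested.

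**Figure D4:**
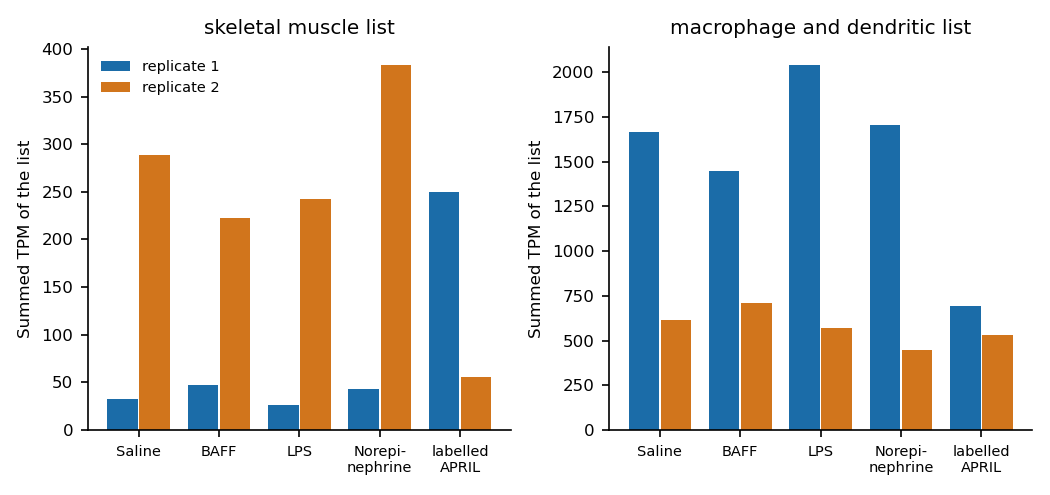
Bars give the summed TPM of the skeletal muscle list (left) and the macrophage and dendritic list (right) in replicate 1 and replicate 2 of each group. Replicate 2 is higher for muscle and replicate 1 for macrophages in the saline, BAFF, LPS and norepinephrine pairs, while in the pair labelled APRIL replicate 1 has the higher sum for both lists, although 13 of 26 macrophage genes are higher in replicate 2.

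Few lymphoid and granulocyte markers reached 1 TPM in both libraries. A listed 0 need not mean that a transcript was absent, since Rps12, a ribosomal protein gene, and Oaz1, a regulator of polyamine synthesis, both used by every cell, were also listed at 0 in both. Of 18 T and natural killer cell genes 3 reached 1 TPM in both libraries: the interleukin-33 receptor Il1rl1, at 10.6 and 12.1 TPM, the T-cell receptor constant gene Trac, at 5.60 and 8.82 TPM, and Il7r, at 1.64 and 1.35 TPM. The defining CD3 chain genes Cd3e and Cd3g were listed at 0 in both libraries. Among 10 B-lymphocyte genes the immunoglobulin heavy chain gene Ighm, at 1.85 and 2.09 TPM, was the only one at 1 TPM, and Ms4a1 (CD20) was listed at 0 in both. The epithelial keratin genes Krt5 and Krt14 were listed at 0 in both libraries, and Epcam stood at 0.0362 and 0.0194 TPM. The mast cell and stem cell receptor Kit was the only 1 of 15 neutrophil and mast cell genes at 1 TPM in both, at 1.06 and 2.54 TPM.

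Receptor lists summed to between 52.1 and 1956 TPM, and most differed little between the libraries. The beta-3 adrenergic receptor (Adrb3), through which norepinephrine drives lipolysis in rodent fat, stood at 119 and 141 TPM and was the only 1 of 9 adrenergic receptor genes above 10 TPM. Adrb1 was at 0.320 and 0.280 TPM and the alpha receptor Adra1d at 4.10 and 5.18 TPM. The insulin receptor (Insr) stood at 14.3 and 14.9 TPM, Igf1r at 7.13 and 7.28 TPM and Igf2r, which clears its ligand, at 32.4 and 29.9 TPM. The adiponectin receptors Adipor1 and Adipor2 were at 46.9 and 47.6 TPM and 123 and 137 TPM.

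In the TNF receptor superfamily 16 of 27 genes reached 1 TPM in both libraries. The TNF receptor Tnfrsf1a led at 531 and 482 TPM, followed by the lymphotoxin beta receptor (Ltbr) at 221 and 304 TPM. Of the receptors of BAFF and APRIL, the agents of this study, Tnfrsf13b (TACI) was at 0.339 and 0.212 TPM, Tnfrsf13c (the BAFF receptor) at 0.0906 and 0.105 TPM and Tnfrsf17 (BCMA) at 0.0541 TPM and listed at 0. Their ligand genes stood at 3.20 and 2.73 TPM for Tnfsf13b (BAFF) and 1.25 and 0.484 TPM for Tnfsf13 (APRIL). The LPS receptor gene Tlr4 was at 10.5 and 11.7 TPM and its partner Ly96 at 11.6 and 10.6 TPM. Its co-receptor Cd14 stood at 25.01 and 12.5 TPM. Of the list of Toll-like receptors and partners, 9 genes reached 1 TPM in both libraries. The 2 of these at least 2-fold higher in replicate 1 were Tlr2, at 7.30 and 3.62 TPM, and Tlr13, at 3.40 and 1.42 TPM. Of all expressed genes 1.62% were that much higher in replicate 1.

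Among 34 cytokine receptor genes 27 reached 1 TPM in both libraries. The highest of them, left out of this text by name, had a mean of 702 TPM. The shared signalling chain Il6st (gp130) stood at 237 and 259 TPM, growth hormone receptor (Ghr) at 140.3 and 181 TPM and Il11ra1 at 149 and 129 TPM, whereas the interleukin-6 receptor Il6ra was at 4.35 and 3.71 TPM. The leptin receptor (Lepr) was at 0.211 and 4.53 TPM, over 10 times apart, below 1 TPM in replicate 1. Of the receptor tyrosine kinases Axl, which binds Gas6, was highest at 304 and 276 TPM, followed by Fgfr1 at 105 and 91.9 TPM and Egfr at 92.2 and 82.5 TPM. All but 1 of the 14 TGF-beta, activin and BMP receptor genes were listed above 0 in both libraries, with the co-receptor Tgfbr3 at 61.9 and 55.2 TPM and Tgfbr2 at 52.8 and 47.1 TPM. Of 47 nuclear receptor genes 29 reached 1 TPM, led by the oxysterol receptor Nr1h2 at 124 and 100.2 TPM, then Pparg, with the thyroid hormone receptor Thra at 55.3 and 51.0 TPM and the glucocorticoid receptor Nr3c1 at 31.4 and 31.5 TPM. The lysophosphatidic acid receptor Lpar1, at 42.0 and 38.6 TPM, was the highest of 35 metabolite and hormone receptors coupled to G proteins, and the lactate receptor Hcar1 was at 7.24 and 7.54 TPM.

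**Figure D5:**
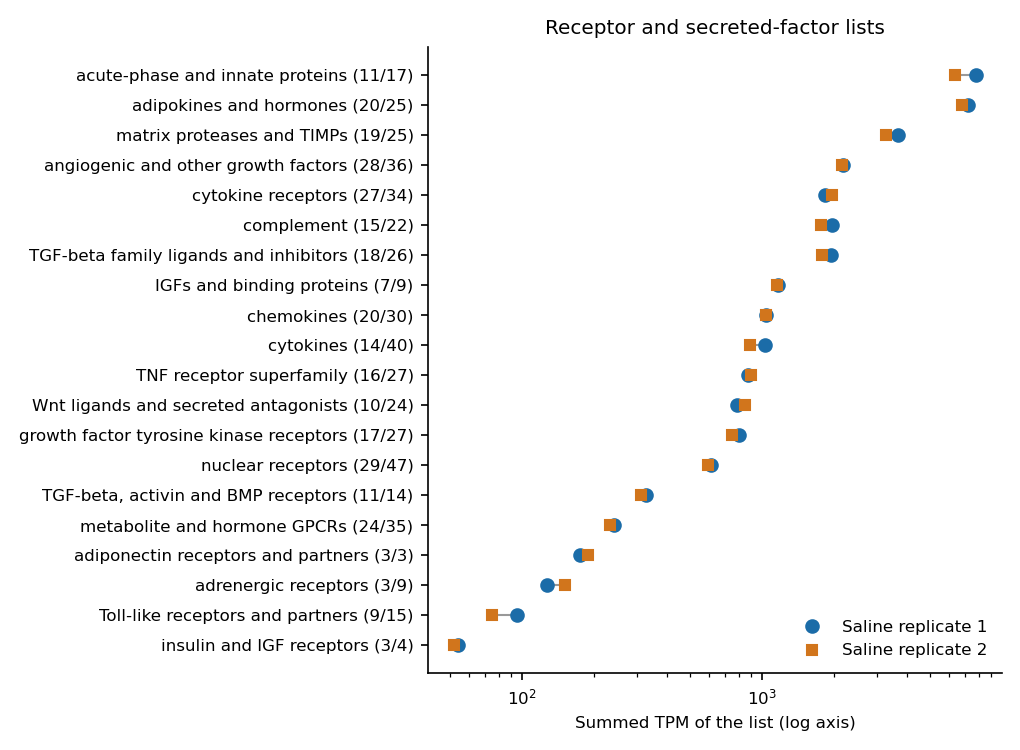
Points give the summed TPM of each receptor and secreted-factor list in saline replicate 1 (circles) and replicate 2 (squares) on a log axis, with members at 1 TPM or more in both over members in the files in brackets. Acute-phase and innate proteins (7781 and 6385 TPM) are at the top and insulin and IGF receptors (53.9 and 52.1 TPM) at the bottom.

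Haptoglobin was the highest gene of the 10 secreted-factor lists, which hold no collagens, with the acute-phase glycoprotein Lrg1 at 625 and 782 TPM and the pentraxin Ptx3 at 238 and 264 TPM. Apolipoprotein E (Apoe) stood at 1453 and 1544 TPM. Of the adipokines, complement factor D (Cfd, adipsin) was at 496 and 585 TPM, resistin (Retn) at 312 and 332 TPM and chemerin (Rarres2) at 719 and 416 TPM. Angptl4, which inhibits lipoprotein lipase, stood at 184 and 174 TPM. Fgf21 was below 1 TPM in both, at 0.911 and 0.877 TPM, and omentin (Itln1) was listed at 0 in both.

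Among chemokines Cxcl14 was highest at 415 and 448 TPM, then Cxcl12, which attracts leukocytes through CXCR4, at 208 and 208 TPM, Ccl9 at 129.8 and 160.5 TPM and Ccl7 at 85.8 and 94.4 TPM. The chemokine list's sums were 1043 and 1038 TPM. Of its 20 expressed members, 5 were at least 2-fold higher in replicate 1 and 1 in replicate 2, beside 1.62% and 0.704% of all expressed genes. These were Cxcl16, at 28.5 and 13.8 TPM, Ccl8, at 25.8 and 11.6 TPM, Ccl11, at 10.4 and 5.04 TPM, Ccl3, at 4.41 and 1.26 TPM, and platelet factor Pf4, at 10.8 and 4.14 TPM, and in the other direction Ccl5, at 1.00 and 2.75 TPM. Of 40 cytokine genes 14 reached 1 TPM in both libraries. Mif, macrophage migration inhibitory factor, took most of that list at 916 and 745 TPM, with the interleukin-1 receptor antagonist Il1rn at 54.9 and 88.5 TPM, Il6 at 3.98 and 6.06 TPM and Tnf at 1.57 and 0.423 TPM.

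Of complement, 15 of 22 genes reached 1 TPM. The C1 inhibitor Serping1 stood at 428 and 354 TPM, C4b at 352 and 349 TPM, the protease C1s1 at 226 and 179.7 TPM and C3 at 97.3 and 70.2 TPM. Of those 15, 3 were at least 2-fold higher in replicate 1, beside 1.62% of all expressed genes, and these were the C1q genes. Growth factors included colony-stimulating factor 1 (Csf1), the ligand of Csf1r, at 324 and 341 TPM, the matricellular protein Ccn5 at 322 and 399 TPM, the vascular factor Vegfa at 278 and 262 TPM and progranulin (Grn) at 371 and 299 TPM. Among ligands and inhibitors of the TGF-beta family, Fstl1, a follistatin-like protein, was highest at 1192 and 1073 TPM, followed by the latent TGF-beta binding protein Ltbp2 at 333 and 322 TPM, with Tgfb1 at 36.5 and 27.2 TPM. Of the insulin-like growth factor genes Igf1 stood at 42.7 and 41.2 TPM, Igf2 at 0.479 and 1.76 TPM and the binding protein Igfbp7 at 721 and 658 TPM. The Wnt antagonists Sfrp1 and Sfrp2 were at 374 and 483 TPM and 358 and 309 TPM, while the highest Wnt ligand, Wnt16, was at 11.1 and 10.7 TPM. The protease inhibitor Timp1 stood at 1249.5 and 1083 TPM, the procollagen protease Adamts2 at 922 and 871 TPM and Mmp11 at 294 and 305 TPM. Of the list of matrix proteases and TIMPs, 19 genes reached 1 TPM in both libraries. The 2 of these at least 2-fold higher in replicate 1 were the macrophage elastase Mmp12, at 67.8 and 28.5 TPM, and Mmp3, at 25.8 and 10.5 TPM. Of all expressed genes 1.62% were that much higher in replicate 1.

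Genes of the protein-folding and amino acid stress responses were also well represented, with 23 of 24 at 1 TPM or more in both libraries. The endoplasmic reticulum chaperones Hsp90b1 and Hspa5 stood at 2389 and 2183 TPM and 1070.2 and 1002 TPM. The transcription factors Atf4 and Ddit3 (CHOP) were at 139 and 143 TPM and 134 and 112 TPM, and asparagine synthetase (Asns) at 116 and 146 TPM. Psat1 and Phgdh, of serine synthesis, stood at 63.6 and 96.3 TPM and 47.1 and 73.6 TPM. None of the 23 differed 2-fold, beside 2.32% of all expressed genes. All 9 genes of the glucocorticoid response list reached 1 TPM, led by the kinase Sgk1 at 46.2 and 40.7 TPM.

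The promoters of the cell type genes held fewer CG dinucleotides than those of expressed genes at large, with medians near that of all windows. RefSeq start-site windows (GRCm38.p6, 250 bases before to 50 after the start) were matched by symbol for 8932 of the 11203 named protein-coding genes at 1 TPM or more in both libraries. The median window of these genes held 21 CG dinucleotides, and that of all 32851 windows held 7. It was 5 for the 16 matched adipocyte genes of 26, 4 for 19 of 26 macrophage genes, 6 for 25 of 31 skeletal muscle genes and 8 for 16 of 24 progenitor genes. Over the expressed genes in order of mean level, the median was 17 at 1 to 5 TPM, 21 at 5 to 20 TPM, 22 at 20 to 100 TPM and at 100 to 500 TPM, and 20 at 500 TPM or more. The 100 bases before the start are shown for an adipocyte gene and for a chaperone gene of higher level, with CG in capitals: Adipoq on the plus strand at chr16:23146436-23146535, with 0, and Hsp90b1 on the minus strand at chr10:86705445-86705544, with 13. This pair was picked for its contrast, and other genes of the same kinds lay between or went the other way. The adipocyte gene Cfd had 1 CG in the same stretch and the chaperone gene Calr 3, while the 3 starts of Pparg had 15, 2 and 1.
Adipoq: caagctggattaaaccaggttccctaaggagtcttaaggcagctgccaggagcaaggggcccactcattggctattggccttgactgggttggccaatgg
Hsp90b1: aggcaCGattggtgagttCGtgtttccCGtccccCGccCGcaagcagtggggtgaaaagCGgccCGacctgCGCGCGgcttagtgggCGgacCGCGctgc

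The letters TATAAA, searched on both strands, were in 13.6% of all 32851 windows, 6.84% of the windows of expressed genes and 34.5% of the windows of the muscle list (10 of 29). The progenitor list had 26.3% (5 of 19), the adipocyte list 9.09% (2 of 22) and the macrophage list 5% (1 of 20). The 100 most abundant named nuclear genes had 10.8% (11 of 102). In the sense direction and 20 to 40 bases before the start they were in 1.99% of all windows, 1.02% of those of expressed genes and 2.94% of those of the 100 most abundant named nuclear genes (3 of 102). In that range the muscle list had 13.8% (4 of 29), the progenitor list 5.26% (1 of 19), the adipocyte list 4.55% (1 of 22) and the macrophage list 0%. The letters CAGCTG, a form of the E-box that myogenic factors bind, were in 16.3% of all windows, 15.1% of those of expressed genes, 41.4% of those of the muscle list (12 of 29) and 40.0% of those of the macrophage list (8 of 20). The progenitor list had 26.3% (5 of 19) and the adipocyte list 22.7% (5 of 22). GAGGAA, the core letters of sites for PU.1, was in 28.3% of all windows and 45.0% of those of the macrophage list (9 of 20). It was in 31.6% of the progenitor (6 of 19), 27.3% of the adipocyte (6 of 22) and 24.1% of the muscle windows (7 of 29). A match describes the letters and not a bound site. The sequences below are those before the start of 3 abundant genes and of 3 muscle genes that were higher in replicate 2, picked because they hold TATAAA or CAGCTG, in capitals. The same 100 bases held no TATAAA in the abundant genes Sparc, Col3a1 and Bgn, and neither motif in the muscle gene Myl4. The letters CAGCTG were also in that stretch of Sparc and, left unmarked, in the Adipoq bases above. Vim is at chr2:13574211-13574310, Postn, a matrix protein at 1502 and 1221 TPM, at chr3:54361007-54361106, before 1 of its 2 starts, and Des at chr1:75360192-75360291, all on the plus strand. Anxa1, a phospholipid-binding protein at 1723 and 1568 TPM, is at chr19:20390672-20390771 and Acta1 at chr8:123894776-123894875, both on the minus strand, and Mylpf at chr7:127211508-127211607 on the plus strand.
Vim: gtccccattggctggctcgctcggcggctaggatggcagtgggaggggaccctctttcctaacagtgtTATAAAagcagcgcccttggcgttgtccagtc
Postn: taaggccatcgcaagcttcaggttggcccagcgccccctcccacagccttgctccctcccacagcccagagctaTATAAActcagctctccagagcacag
Anxa1: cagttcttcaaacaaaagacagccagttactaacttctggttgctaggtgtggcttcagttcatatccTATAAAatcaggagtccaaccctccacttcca
Mylpf: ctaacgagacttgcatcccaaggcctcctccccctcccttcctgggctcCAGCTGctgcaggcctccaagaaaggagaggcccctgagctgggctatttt
Des: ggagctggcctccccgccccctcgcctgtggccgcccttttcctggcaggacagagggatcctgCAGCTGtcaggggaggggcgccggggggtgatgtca
Acta1: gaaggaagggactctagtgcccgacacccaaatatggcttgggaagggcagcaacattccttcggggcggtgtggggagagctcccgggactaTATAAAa
Among these 6 windows the TATAAA of Vim, Anxa1, Postn and Acta1 and the CAGCTG of Mylpf and Des each occur 1 time in the 100 bases shown. The TATAAA of Acta1 lies nearer the start than 20 bases.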

How the data were processed

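RNA-seq levels in the 2 saline libraries were described; nothing was tested, because 1 group of 2 libraries allows no comparison. Per the labels, RNA was made into Illumina TruSeq libraries. The authors deposited TPM per Ensembl gene, per the file headers, and kallisto and the mm10 build are named in the submitters' processing notes. The annotation release, the summing of transcripts to genes, any filter and the fragment length are not given in the sources used here. Listed TPM sum to 963004 and 964726 per library, and depth is unknown. Shares are percentages of the listed sum. Symbols, positions, biotypes and transcript lengths came from GENCODE M21, which matched 27475 of 28987 IDs. Each gene was put in the first fitting functional class by symbol or biotype. Copies were found with BLAST 2.17.0 (at least 90% identity over at least 50% of the query). Differences are log2 of replicate 2 over replicate 1, without a pseudocount, in genes at 1 TPM or more in both.

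The 43 gene lists hold 830 genes, 817 of them in the files, and the members and lists were chosen with earlier results of these data known. Genes were named by rule: the 25 highest means, the 4 highest of each list with receptors and ligands of the study's agents, 2 per class, and the 10 largest differences each way. Those differences were ranked among genes at 1 TPM or more in both libraries with a mean of 5 TPM or more, without pseudogenes and unnamed models. A few genes named by this rule are left out of the text. List members that differed 2-fold or were low were named after their values were seen. The difference calculation was tested on simulated data. The class shares were only checked, on the real values of replicate 1, to sum to the whole. Python 3.11.15, pandas 2.3.3 and matplotlib 3.10.9 were used.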

Additional observations from a re-analysis of the deposited data

How the results depend on the processing

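No paired analysis was possible because only 1 group is described and no test was run. Of 216 recalculations that kept both libraries, 111 stayed within 1 SD of the 2 libraries (counts within 1.5 times) and 105 moved further. Leaving out 1 of 2 libraries always puts a level within 1 SD of their mean, so such values say nothing of stability. Leaving out mitochondrially encoded genes gave mean shares of 2.09% for collagens, 8.44% for ribosomal proteins, 3.304% for lipid genes, 19.5% for pseudogenes and 33.98% for the 100 highest genes, and, rescaled, list sums of 14561 TPM for adipocytes and 16823 TPM for progenitors. Taken over 1000000 TPM, not the listed sum, the ribosomal share was 6.402%. Chosen after seeing the data, leaving out genes with longest transcripts under 250 nt gave 2.04%, 8.23%, 3.22%, 12.2% and 36.5% in the same order and 10.2% for mitochondrial genes. Counting copies and other matched models with their coding match, also chosen after seeing the data, gave 18.4% for ribosomal proteins and 0.104% for pseudogenes. The median absolute difference was 0.055 without a filter on log2(TPM + 1). Genes at least 2-fold apart numbered 290 as reported, 159 on log2(TPM + 1) and 82 at 5 TPM or more in both. Leaving out each replicate gave 12879 to 12899 genes, 288 and 32.4 TPM for the muscle list and 614 to 1665 TPM for the macrophage list. The spread has no value from 1 library. Depth limits all genes near 1 TPM by an amount these files do not show.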

Other observations

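Levels that a reader may want to look at again include Vps39, a subunit of a vesicle-tethering complex, which at 1670.1 and 1395 TPM ranked among the named nuclear genes beside Actb at 1993 and 1848 TPM. The short gene models Gm10160 and Gm10197, both of 201 nt and annotated as protein-coding, stood at 2903 and 3448 TPM and 3302 and 2127 TPM, and matched transcripts of Ccdc167 (at 14.6 and 7.04 TPM) and Mxi1 (at 12.6 and 10.7 TPM). Gm10197 lies on chr19:53371566-53371766, and whether it overlaps the Mxi1 gene itself was not tested. Gm10222, a nuclear copy on chromosome 1, was listed at the same values as mt-Nd4l, at 3082 and 3504 TPM, and 15 expressed IDs in all shared both values with another ID. The median longest transcript of named protein-coding genes fell from 3721 nt at a mean of 1 to 5 TPM to 1848 nt at 500 TPM or more.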
